A study of Mus musculus with 16 samples.

Results

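The autophagy machinery was followed as a list of 35 genes in livers of mice that lacked Rassf1a, carried a single Sav1 copy, or both. A gene was represented by a probe set, a group of array probes for its transcript, whose platform symbol named that gene alone. If a gene had more than 1, the one of highest mean signal stood for it. All 35 listed genes had such a probe set and all 35 were among the 13152 genes tested in the series. A gene was tested if its signal reached the array's 40th percentile (a log2 signal of 7.16 to 7.44) in at least 4 arrays. Of the 35, 32 did so in all 16 arrays and Pik3r4 in 15, while Map1s and Atg16l2 did so in only 4.

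Total RNA of mouse liver, strain 129, was hybridised to Affymetrix whole-transcript arrays, with 4 arrays for each of 4 genotypes. These were Rassf1a-/- Sav1+/- (the combined genotype), Rassf1a-/-, Sav1+/- and wild type. Per its title the study concerns liver tumorigenesis in mice without Rassf1a, a tumour suppressor, along with Tbk1 and beta tubulin, and Sav1 encodes an adaptor of the Hippo pathway kinases. The labels used here give no kind of allele, sex, age or time of day, and they do not state that the 4 samples of a genotype came from separate animals. The p-values therefore cover only the spread among these samples, which may be technical.

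Autophagy encloses cytoplasm in a growing membrane, the phagophore, and delivers it to the lysosome. A kinase complex around ULK1 starts the process, a lipid kinase complex around VPS34 marks the membrane, ATG9 and ATG2 feed it with lipid, and a conjugation system attaches proteins of the ATG8 family (LC3 and GABARAP) to it. ATG4 proteases prepare ATG8 proteins for conjugation and later release them. In liver, autophagy is known for supplying nutrients in fasting and for clearing damaged organelles and protein aggregates, and loss of Atg5 or Atg7 in mouse liver is known to enlarge the organ and to lead to liver tumours.

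Several features of the arrays bear on all values below. Sav1 was lower in the 8 Sav1+/- arrays than in the other 8 (averaged over the Rassf1a genotypes -0.93 on the log2 scale, SE 0.12, limma adjusted p = 0.0113). The probe set of Rassf1 read 7.48 to 7.71 in the combined genotype, 6.94 to 7.42 in Rassf1a-/-, 6.99 to 8.14 in Sav1+/- and 7.21 to 7.59 in wild type (log2 signal), so it does not separate the Rassf1a genotypes, and whether its probes lie in the altered part of the gene was not tested. Y-linked genes (3 measured) averaged at least 8.87 in 5 arrays and at most 4.17 in the other 11. The 5 were replicates 1 and 2 of the combined genotype, replicate 2 of Rassf1a-/- and replicates 3 and 4 of Sav1+/-. None was wild type, and they are called Y-high arrays here. Xist read 2.12 to 4.31 in these 5 arrays and 10.34 to 11.47 in the other 11 (log2 signal). The arrays thus split as male and female livers would, although the labels give no sex. Each comparison with wild type sets a genotype that holds Y-high arrays against one that holds none. Of 17 clock genes tested, 11 were called in the combined genotype (0.821% of all genes) and 10 in Rassf1a-/- livers (0.7%) against wild type, and 0 in Sav1+/- livers (0%). The 9 measured hepatocyte markers averaged 13.02 to 13.46 in every array. The arrays also differed among themselves: replicate 3 of the combined genotype held the lowest of the genotype's 4 values for 25 of the 35 genes, replicate 3 of Rassf1a-/- for 24 and replicate 1 of Sav1+/- for 25, against 32%, 39.1% and 46% of all genes.

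Atg4d and Map1s were the 2 genes of the list that differed between genotypes at an adjusted p under 0.05. Among genes that reached the filter in more than 4 arrays, Atg4d alone passed. The other 33 did not pass in any of the 8 comparisons. Atg4d, which encodes a protease of the ATG4 family, fell 1.79-fold in the combined genotype against wild type and was lowest there of the 4 genotypes. Map1s, which encodes a microtubule-associated protein that binds LC3, passed the test for Rassf1a loss averaged over the Sav1 genotypes, as higher. It reached the filter on low signal in only 4 arrays, all without Rassf1a, and in no Sav1+/- or wild-type array. It was thus tested only through arrays in which it was high. Its calls, its unadjusted p-values and the position of its arrays therefore add no support to the counts here or below. Its differences are set against signals below the filter and are given with no fold. A gene is said to be called, to rise or to fall only where the adjusted p of limma over all 13152 genes was under 0.05. In such bulk samples fewer cells of a type and less RNA per cell cannot be told apart.

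**Figure D1:**
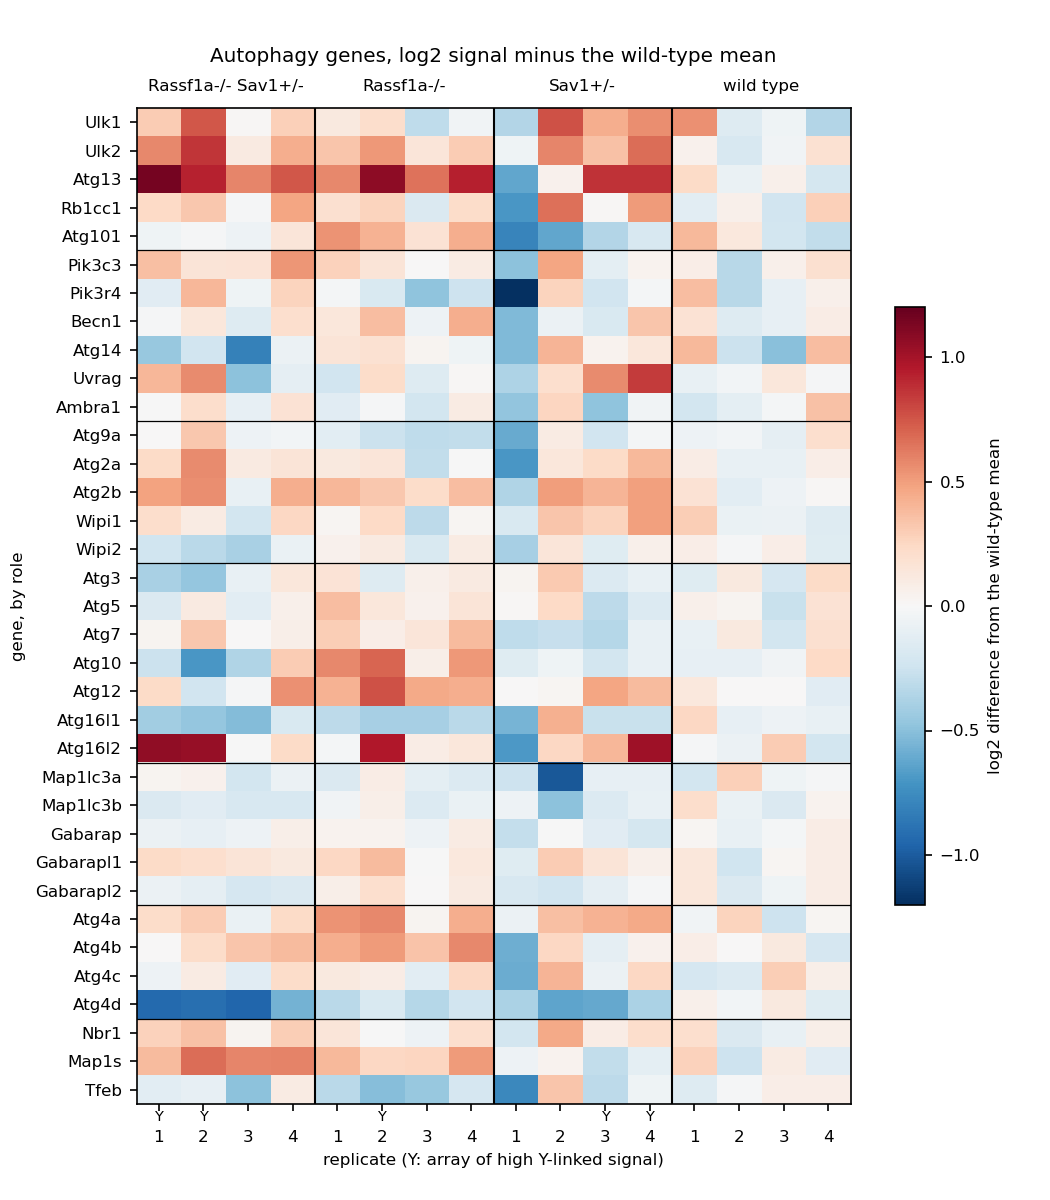
The colour of each cell is the log2 signal of 1 of the 35 autophagy genes in 1 array minus that gene's mean over the 4 wild-type arrays, with genes grouped by role and arrays by genotype; Y-high arrays carry a Y. The Atg4d row is blue throughout the combined genotype, and the Map1s row is red in all 8 Rassf1a-/- arrays with either Sav1 genotype.

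Counted by comparison, few of the 35 genes were called. In the combined genotype against wild type 1 was called, Atg4d, lower, as were 0.821% of all genes (0.487% lower). In Rassf1a-/- against wild type 0 were called, against 0.7% of all genes. There 9 had an unadjusted p under 0.05, a larger share than the 10.4% of all genes. Map1s is among the 9 and adds no support to that count. In Sav1+/- against wild type 0 were called, against 0% of all genes, and 3 had an unadjusted p under 0.05 (9.15%). The median difference of the 35 genes lay close to that of all genes in each: +0.09 beside +0.05 in the combined genotype, +0.08 beside -0.01 in Rassf1a-/- and -0.05 beside -0.02 in Sav1+/- livers (log2). The 95% interval of the difference from wild type lay within a 2-fold change in either direction for 32 of the 35 genes in the combined genotype, for 34 in Rassf1a-/- and for all 35 in Sav1+/- livers. The remaining contrasts gave as few calls. The combined genotype against Sav1+/- called Map1s, higher (0.836% of all genes), and against Rassf1a-/- it called 0 (0.0076%, the single gene Lrrc51; 5 of the 35 had an unadjusted p under 0.05, against 14.7% of all genes). The Rassf1a effect averaged over the Sav1 genotypes called Map1s (2.23%, and 1.76% higher), the averaged Sav1 effect called Atg4d (0.0228%), and their interaction called 0 (0%; 4 of the 35 had an unadjusted p under 0.05, against 9.4% of all genes).

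The arrays of 2 genotypes did not overlap for at most 8 of the 35 genes, in Rassf1a-/- against wild type. That is a larger share than the 10.9% of all genes, and the excess was not tested. Against wild type, all 4 arrays of the combined genotype lay above for 3 genes (Atg2a, Atg13 and Map1s; 6.28% of all genes) and below for 2 (Atg4d and Atg16l1; 4.49%), and 5 genes had an unadjusted p under 0.05 (13.6%). Rassf1a-/- arrays lay above for 4 (Atg2b, Atg4b, Atg12 and Atg13; 6.55%) and below for 4 (Atg4d, Atg9a, Atg16l1 and Tfeb; 4.32%). Sav1+/- arrays separated from wild type for Atg4d alone, lower (4.24%, and 4.68% in either direction). The combined genotype lay above Sav1+/- for Atg7, Atg101 and Map1s (5.03%, and 6.46% in either direction). It lay above Rassf1a-/- for Atg9a (3.85%) and below it for Atg4d, Atg14, Atg101 and Gabarapl2 (5.96%). All 8 arrays without Rassf1a separated from all 8 others for 0 of the 35 genes (0.776%). Map1s was tested only through arrays in which it was high, so it adds no support to the counts above that include it.

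**Figure D2:**
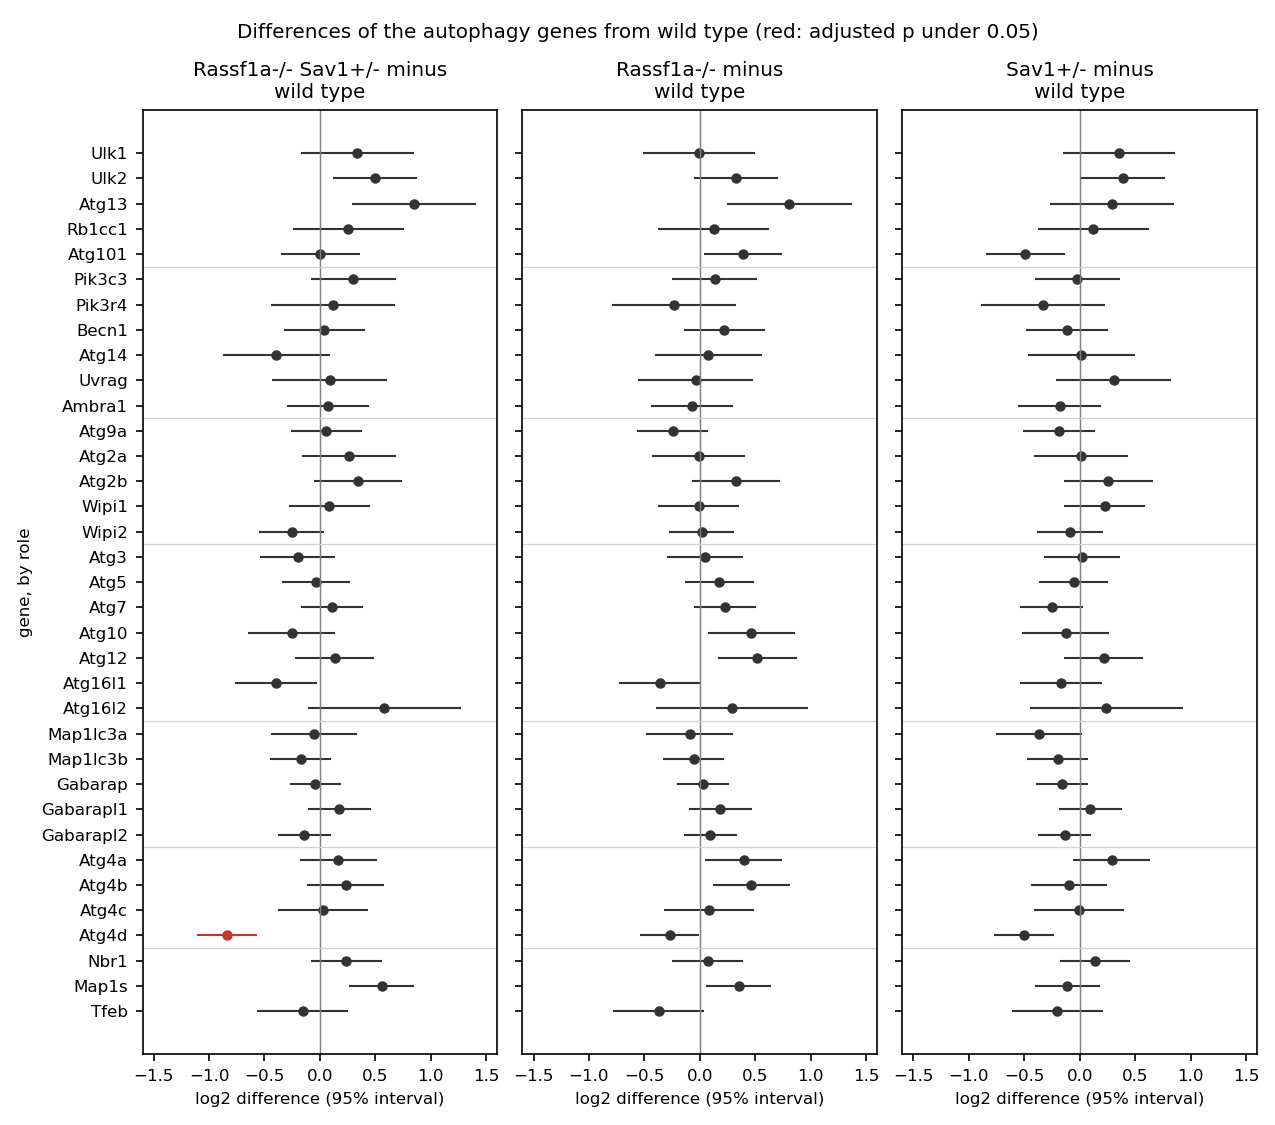
Each point is a gene's log2 difference from wild type with its 95% interval from limma, for the combined genotype (left), Rassf1a-/- (middle) and Sav1+/- (right). Atg4d in the combined genotype, at -0.84, is the only point in red (adjusted p under 0.05), and most intervals include 0.

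The initiation complex holds the kinases ULK1 and ULK2, their regulatory subunits ATG13 and ATG101, and the scaffold FIP200 (Rb1cc1). None of its 5 genes was called between genotypes, with differences from wild type of 0.00 to +0.85 in the combined genotype, -0.01 to +0.81 in Rassf1a-/- and -0.49 to +0.39 in Sav1+/- livers (log2). Atg13 had log2 signals of 11.75, 11.53, 11.18 and 11.34 in the combined genotype, 11.18, 11.68, 11.25 and 11.53 in Rassf1a-/-, 9.97, 10.65, 11.47 and 11.47 in Sav1+/- and 10.83, 10.52, 10.67 and 10.39 in wild type. All 8 Rassf1a-/- arrays with either Sav1 genotype lay above the 4 wild-type arrays, while Sav1+/- arrays lay on both sides. The averaged Rassf1a effect on Atg13 was +0.68 (SE 0.19, adjusted p = 0.0640), and the difference from wild type was +0.85 in the combined genotype (SE 0.26, adjusted p = 0.150) and +0.81 in Rassf1a-/- livers (SE 0.26, adjusted p = 0.233). Without the 5 Y-high arrays the averaged effect was +0.83 and passed (adjusted p = 0.0254). Of Sav1+/- that fit kept only replicates 1 and 2, at 9.97 and 10.65. In it the differences from wild type were smaller, +0.66 in the combined genotype and +0.72 in Rassf1a-/- livers (adjusted p = 0.642 and 0.184).

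Atg101, the partner that stabilises ATG13, had log2 signals of 9.11, 9.15, 9.10 and 9.31 in the combined genotype, 9.70, 9.58, 9.34 and 9.60 in Rassf1a-/-, 8.38, 8.54, 8.81 and 8.98 in Sav1+/- and 9.55, 9.30, 8.94 and 8.88 in wild type. The combined genotype lay above all Sav1+/- arrays, below all Rassf1a-/- arrays and within the range of wild type. Its averaged Rassf1a effect of +0.44 (SE 0.12, adjusted p = 0.0563) and averaged Sav1 effect of -0.44 (SE 0.12, adjusted p = 0.122) were of like size and opposite sign. Ulk2 was +0.50 in the combined genotype (SE 0.18, adjusted p = 0.217), +0.33 in Rassf1a-/- (adjusted p = 0.542) and +0.39 in Sav1+/- livers (adjusted p = 0.528). Ulk1 was +0.34, -0.01 and +0.35 in the same comparisons, with a spread within genotypes of 0.364 (SD), larger than in 84.3% of all genes. Rb1cc1 was +0.25, +0.13 and +0.12, each with a SE of 0.23.

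Of the lipid kinase complex, 0 of 6 genes were called between genotypes. These encode the catalytic subunit VPS34 (Pik3c3), its partner VPS15 (Pik3r4), Beclin 1 (Becn1), the alternative subunits ATG14 and UVRAG, which direct it to autophagosomes and to endosomes, and the regulator AMBRA1. Differences from wild type ran over -0.39 (Atg14) to +0.30 (Pik3c3) in the combined genotype, -0.23 (Pik3r4) to +0.22 (Becn1) in Rassf1a-/- and -0.33 (Pik3r4) to +0.31 (Uvrag) in Sav1+/- livers. Becn1 averaged 9.46 ± 0.16 in the combined genotype, 9.64 ± 0.23 in Rassf1a-/-, 9.30 ± 0.36 in Sav1+/- and 9.42 ± 0.15 in wild type (log2 signal, SD, n = 4 each). Ambra1 differed from wild type by +0.07 in the combined genotype, -0.07 in Rassf1a-/- and -0.18 in Sav1+/- livers (SE 0.17 each, none called). The range of differences in this group was set in part by single arrays: Pik3r4 was 7.10 in replicate 1 of Sav1+/-, against 8.20 to 8.70 in the other 3 arrays of that genotype.

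Membrane supply gave 0 calls between genotypes in 5 genes. ATG9A is a lipid scramblase on vesicles, ATG2A and ATG2B are lipid transfer proteins, and WIPI1 and WIPI2 bind the lipid that VPS34 makes. Atg9a had the lowest difference of the group in Rassf1a-/- livers (-0.25, SE 0.15, adjusted p = 0.595), with log2 signals of 10.48, 10.35, 10.30 and 10.31 in Rassf1a-/- and 10.55, 10.57, 10.50 and 10.81 in wild type, which did not overlap. In the combined genotype it had 10.62, 10.93, 10.55 and 10.58, of which 3 lay within the range of wild type. Atg2b was +0.35 in the combined genotype, +0.33 in Rassf1a-/- and +0.26 in Sav1+/- livers (adjusted p = 0.433, 0.563 and 0.726), and its second probe set correlated with the first at r = 0.844 over the 16 arrays. Atg2a differed from wild type by +0.26 in the combined genotype, -0.01 in Rassf1a-/- and +0.01 in Sav1+/- livers (SE 0.20 each, none called). Wipi2, which recruits ATG16L1, was -0.26 in the combined genotype (SE 0.13, adjusted p = 0.429), and Wipi1 was +0.09 there and +0.23 in Sav1+/- livers (SE 0.17 each).

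The conjugation system gave 0 calls between genotypes in 7 genes. ATG7 is the activating enzyme, ATG3 and ATG10 are the conjugating enzymes for ATG8 proteins and for ATG12, and ATG12, ATG5 and ATG16L1 form the complex that acts as the ligase for ATG8 proteins. Atg16l1 had log2 signals of 8.45, 8.40, 8.35 and 8.69 in the combined genotype, 8.56, 8.47, 8.47 and 8.54 in Rassf1a-/-, 8.31, 9.29, 8.60 and 8.60 in Sav1+/- and 9.11, 8.77, 8.81 and 8.78 in wild type. Both genotypes without Rassf1a lay wholly below wild type, by -0.40 in the combined genotype (SE 0.17, adjusted p = 0.317) and -0.36 in Rassf1a-/- (SE 0.17, adjusted p = 0.479). Arrays of the combined genotype and wild type did not overlap for 5 of the 35 genes, against 10.8% of all genes, and those of Rassf1a-/- and wild type for 8, against 10.9%. The 5 include Map1s, which adds no support to that count. Atg12 was +0.52 in Rassf1a-/- livers (SE 0.16, adjusted p = 0.222), with arrays at 8.75 to 9.10 against 8.20 to 8.46 in wild type, and +0.13 in the combined genotype.

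Atg10 and Atg7 differed in how they stood among the genotypes. Atg10 had log2 signals of 8.39, 7.96, 8.29 and 8.95 in the combined genotype, 9.23, 9.35, 8.72 and 9.17 in Rassf1a-/-, 8.51, 8.60, 8.43 and 8.56 in Sav1+/- and 8.55, 8.56, 8.61 and 8.89 in wild type. The difference of the combined genotype from Rassf1a-/- was -0.72 (SE 0.18, adjusted p = 0.0940), although replicate 4 of the combined genotype lay above replicate 3 of Rassf1a-/-. Atg7 was 10.26, 10.56, 10.24 and 10.30 in the combined genotype, above the 9.93, 9.95, 9.89 and 10.14 of Sav1+/- livers, a difference of +0.36 (SE 0.13, adjusted p = 0.191), and its averaged Rassf1a effect was +0.29 (SE 0.09, adjusted p = 0.103). The differences of Atg5 and Atg3 were small in each pairwise comparison, the largest being -0.21 for Atg5 and -0.25 for Atg3, both in the combined genotype against Rassf1a-/- (adjusted p = 0.484 and 0.463).

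Genes of the ATG8 family differed little between genotypes, and most varied little within them. LC3A, LC3B and the GABARAP proteins coat the phagophore and bind cargo receptors. None of the 5 was called, and differences from wild type ran over -0.17 to +0.18 in the combined genotype, -0.09 to +0.19 in Rassf1a-/- and -0.37 to +0.09 in Sav1+/- livers. The SD within genotypes was 0.0866 for Gabarap and 0.0988 for Gabarapl2, at the 0.509 and 0.981 percentile of all genes, and 0.139 for Map1lc3b, against a median of 0.261 over all genes. For Gabarap the 95% interval of the difference from wild type was -0.26 to +0.19 in the combined genotype, -0.20 to +0.25 in Rassf1a-/- and -0.38 to +0.07 in Sav1+/- livers. The lowest Map1lc3a value was a single array, replicate 2 of Sav1+/- at 9.20, against 9.96 to 10.12 in the other 3. Over the 16 arrays the 2 probe sets of Map1lc3b correlated at r = 0.988 and those of Gabarapl2 at r = 0.747, the second of Gabarapl2 having a mean log2 signal of 5.77, below the filter level of every array.

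The ATG4 proteases are encoded by 4 genes, and 1 of them was called. Atg4d had log2 signals of 9.04, 9.06, 9.02 and 9.40 in the combined genotype, 9.64, 9.79, 9.62 and 9.73 in Rassf1a-/-, 9.58, 9.34, 9.35 and 9.59 in Sav1+/- and 10.03, 9.94, 10.08 and 9.82 in wild type. No altered genotype overlapped wild type, the combined genotype overlapped Sav1+/- only through its replicate 4, and all 8 Sav1+/- arrays with either Rassf1a genotype lay below all 8 others, as did those of 0.213% of all genes. Atg4d fell by 0.84 on the log2 scale in the combined genotype against wild type (SE 0.12, adjusted p = 0.00268), the 15th smallest p of all genes. It was -0.50 in Sav1+/- livers (SE 0.12, adjusted p = 0.182) and -0.27 in Rassf1a-/- livers (SE 0.12, adjusted p = 0.451), neither of which passed. Averaged over the Rassf1a genotypes the Sav1 effect was -0.53 (SE 0.09, adjusted p = 0.0480), 1 of 3 calls in all genes beside Sav1 and Wnt5b.

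The combined difference of Atg4d was near the sum of the separate ones. The interaction was -0.06 (SE 0.17, adjusted p = 0.940), with a 95% interval of -0.43 to +0.30 on the log2 scale. The averaged Rassf1a effect was -0.30 (SE 0.09, adjusted p = 0.0771). The call of the combined genotype against wild type passed in all 16 fits that left out 1 array (adjusted p = 0.00111 to 0.0180), and without the 5 Y-high arrays the difference was -0.76 and did not pass (adjusted p = 0.216). Between Y-high and other arrays Atg4d differed by -0.02 (SE 0.11, adjusted p = 0.984). The averaged Sav1 call passed in 2 of those 16 fits, those without replicate 1 of Sav1+/- and without replicate 4 of the combined genotype, with differences of -0.58 to -0.51 over the 16 and adjusted p up to 0.180. Beside it, the 12 Kupffer cell and macrophage markers, all measured above the filter, were each positive in the averaged Sav1 effect, against 54.0% of all genes (median +0.35, 0 called, 2 with an unadjusted p under 0.05). Their array means were 10.05 to 10.95 in the combined genotype, 9.75 to 11.07 in Sav1+/-, 9.43 to 10.35 in Rassf1a-/- and 9.66 to 10.53 in wild type. In the same effect 7 of 8 endothelial, 6 of 8 stellate, 6 of 9 hepatocyte, 3 of 3 B and T cell and 2 of 2 erythroid markers were positive. Of cholangiocyte and of neutrophil markers, 1 of 2 was positive. Of the 12 macrophage markers, 11 were positive in the combined genotype against wild type, against 58.7% of all genes (median +0.42, 0 called). There 6 of 8 endothelial, 6 of 8 stellate, 4 of 9 hepatocyte and 3 of 3 B and T cell markers were positive. So were 2 of 2 erythroid, 1 of 2 neutrophil and 0 of 2 cholangiocyte markers. Clock genes differed in that comparison too. In the averaged Rassf1a effect 5 of the 12 macrophage markers were positive, against 55.1% of all genes (median -0.008, 0 called). The part of these markers or of clock genes in the results for Atg4d, Vamp8 and Atp6v0b was not tested.

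None of the other 3 ATG4 genes was called. Atg4b, the most active family member on LC3 in biochemical work, was +0.23 in the combined genotype (adjusted p = 0.564) and +0.47 in Rassf1a-/- livers (SE 0.16, adjusted p = 0.272), with Rassf1a-/- arrays at 8.76 to 8.99 against 8.21 to 8.52 in wild type. Atg4a was +0.17 and +0.39 in the same comparisons, and Atg4c +0.03 and +0.08. In the averaged Sav1 effect, where Atg4d was called, Atg4a was +0.03, Atg4b -0.17 and Atg4c -0.03 (adjusted p = 0.907, 0.482 and 0.928), and in the combined genotype against Rassf1a-/- all 3 were negative, at -0.23, -0.23 and -0.05. Over the 16 arrays the 2 probe sets of Atg4a correlated at r = 0.994. Whether Atg4d differed from the other 3 genes in its response was not tested.

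The RefSeq sequence before the start of Atg4d is shown because Atg4d is the gene called against wild type. It covers the 250 bases upstream of the start site, chr9:21265035-21265284 on the plus strand (GRCm38.p6), and was read with 50 further bases for 4 motifs on both strands: the E-box of clock activators (CACGTG), the D-box of DBP (TTATGTAA), the response element core of ROR receptors (AGGTCA) and the site of the Hippo pathway's TEAD factors (GGAATG). No base is in capitals, since none of these letters occur in the window of 300 bases, of which 61.7% are G or C.
Atg4d: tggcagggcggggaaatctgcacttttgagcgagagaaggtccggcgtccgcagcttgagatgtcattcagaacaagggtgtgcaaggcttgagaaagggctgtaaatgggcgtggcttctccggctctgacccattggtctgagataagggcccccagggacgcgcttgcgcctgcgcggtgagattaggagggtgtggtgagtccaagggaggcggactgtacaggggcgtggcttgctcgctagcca

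Map1s was called with Rassf1a loss, but was tested only through arrays in which it was high. Its product links LC3 to microtubules and is known to bind RASSF1A protein. Map1s had log2 signals of 7.26, 7.55, 7.47 and 7.48 in the combined genotype, 7.27, 7.13, 7.14 and 7.39 in Rassf1a-/-, 6.82, 6.92, 6.58 and 6.76 in Sav1+/- and 7.16, 6.64, 6.99 and 6.75 in wild type. The combined genotype lay above all Sav1+/- and all wild-type arrays, and Rassf1a-/- arrays overlapped wild type only through wild-type replicate 1. The fitted difference of Map1s was +0.67 in the combined genotype against Sav1+/- (SE 0.13, adjusted p = 0.0266) and +0.51 in the averaged Rassf1a effect (SE 0.09, adjusted p = 0.00730). With no filter, over 19938 genes, the averaged effect kept its call (adjusted p = 0.0188) and the difference from Sav1+/- did not (adjusted p = 0.0610). Against wild type it was +0.56 in the combined genotype (SE 0.13, adjusted p = 0.0628) and +0.35 in Rassf1a-/- livers (SE 0.13, adjusted p = 0.352). Its difference in Sav1+/- livers was -0.11 (adjusted p = 0.864).

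These Map1s values are close to the filter on low signal. The 4 arrays that reached the filter were 3 of the combined genotype and 1 of Rassf1a-/-, so the gene was tested only through arrays in which it was high, and all Sav1+/- and wild-type arrays lay below it. The difference from Sav1+/- also failed with only the compared genotypes in the fit (adjusted p = 0.240). Between Y-high and other arrays Map1s differed by -0.13 (SE 0.11, adjusted p = 0.758). Clock genes differed along the same axis: Arntl averaged 9.72 ± 0.40 in the combined genotype and 10.1 ± 0.13 in Rassf1a-/-, against 6.71 ± 0.69 in Sav1+/- and 6.71 ± 0.73 in wild type (log2 signal, SD, n = 4 each), and their part in the Map1s result was not tested.

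The bases before the start of Map1s, chr8:70905724-70905973 on the plus strand (GRCm38.p6, RefSeq), are shown as those of the gene called with Rassf1a loss. Capitals mark the 2 matches to GGAATG, and the other 3 motifs were not found.
Map1s: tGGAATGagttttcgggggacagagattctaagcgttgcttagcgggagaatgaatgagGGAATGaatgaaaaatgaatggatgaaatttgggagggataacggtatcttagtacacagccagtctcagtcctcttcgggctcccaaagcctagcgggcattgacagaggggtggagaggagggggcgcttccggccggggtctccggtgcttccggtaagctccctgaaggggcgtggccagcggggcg
RefSeq promoters were matched for 29 of the 35 genes (not for Atg12, Atg16l1, Becn1, Map1lc3a, Pik3c3 and Rb1cc1). Of these 29, 17.2% held GGAATG in a window of 300 bases, as did 16.6% of 27025 genes in all, and 13.8% held CACGTG (Atg3, Atg5, Atg7 and Atg14), against 8.09%. AGGTCA occurred in 20.7% of them, against 18.1%, and TTATGTAA in 0 genes, against 1.11%. Promoters of the list had a median of 59.7% G or C, against 52.7% over all promoters, and the shares were not adjusted for this. A match is a stretch of letters and not a measured binding site.

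Nbr1 and Tfeb complete the list. NBR1 is a cargo receptor that binds ubiquitin and LC3, and TFEB is a transcription factor of lysosome and autophagy genes. Nbr1 was +0.24 in the combined genotype (SE 0.15, adjusted p = 0.509), +0.07 in Rassf1a-/- and +0.13 in Sav1+/- livers. Tfeb was -0.16, -0.37 and -0.20 in the same comparisons, with Rassf1a-/- arrays at 8.48 to 8.80 against 8.84 to 9.08 in wild type (adjusted p = 0.521).

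**Figure D3:**
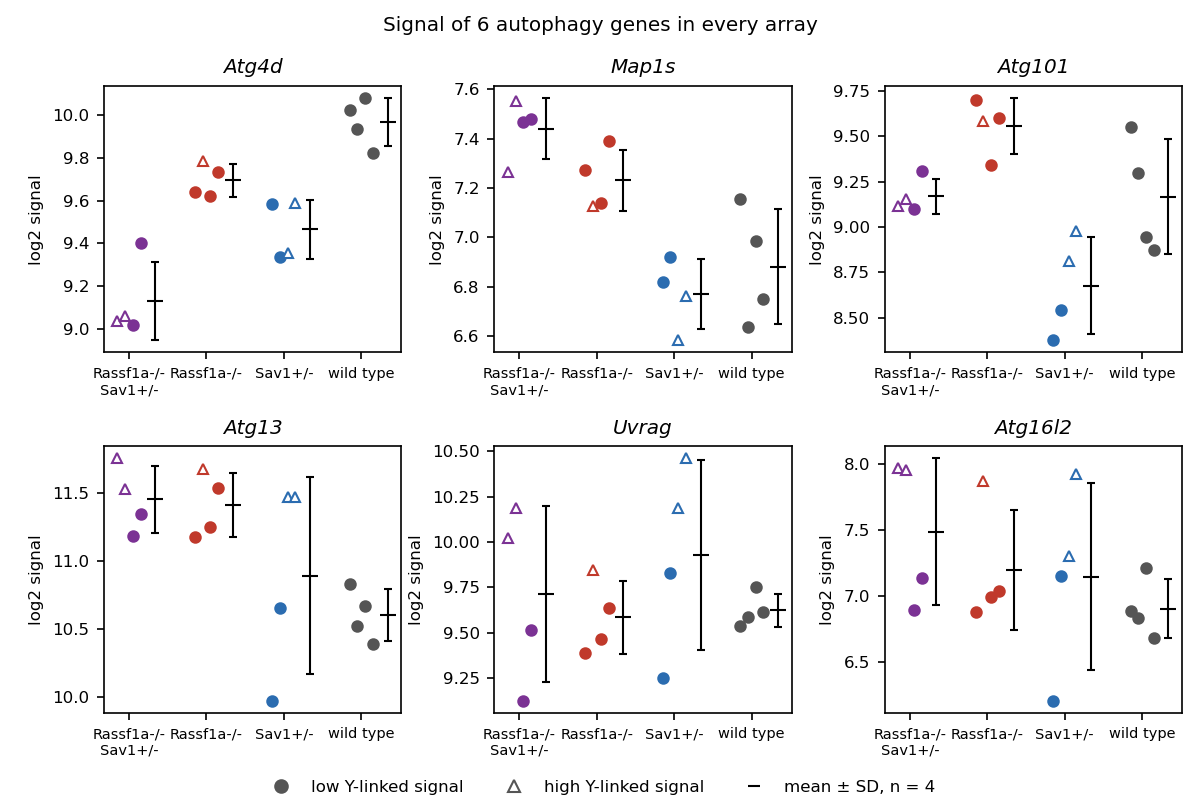
Log2 signal of 6 autophagy genes in every array by genotype, with triangles for Y-high and circles for other arrays, and bars for the mean ± SD of 4 arrays. Atg4d is lowest in the combined genotype. Map1s, on signals near the filter, has higher means in both genotypes without Rassf1a. It was called in neither against wild type, and its Rassf1a-/- arrays overlap wild type. In the lower row triangles lie above the circles of the same genotype.

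Several of the 35 genes followed the Y-linked signal within genotypes, a split that was chosen after seeing the data. With high or low Y-linked signal as a term beside the genotypes, Atg13, Atg16l2 and Uvrag were called, all higher in Y-high arrays (Atg13 and Uvrag alone among the genes that reached the filter in more than 4 arrays), against 4.73% of all genes (1.81% higher). Uvrag was higher by 0.67 (SE 0.13, adjusted p = 0.00373): Y-high arrays had 10.02 and 10.19, against 9.13 and 9.51, in the combined genotype, 9.84, against 9.39, 9.47 and 9.64, in Rassf1a-/-, and 10.19 and 10.46, against 9.25 and 9.83, in Sav1+/- livers. Atg16l2, a paralog of Atg16l1, was higher by 0.92 (SE 0.16, adjusted p = 0.00106), with 7.97 and 7.95, against 6.90 and 7.14, in the combined genotype, 7.87, against 6.88, 6.99 and 7.04, in Rassf1a-/-, and 7.30 and 7.92, against 6.21 and 7.15, in Sav1+/- livers. The 4 arrays in which Atg16l2 reached the filter were all Y-high, so it was tested only through arrays in which it was high and its call adds no support to the count; with no filter its adjusted p was 0.00281. Atg13 was higher by 0.65 (SE 0.16, adjusted p = 0.0205), and without replicate 3 or 4 of Sav1+/- it did not pass (adjusted p = 0.0745 and 0.0717). In 6 of the 35 genes every Y-high array lay above every other array of its genotype in all 3 genotypes (Atg2a, Atg13, Atg16l2, Map1lc3a, Gabarapl2 and Uvrag; 2.94% of all genes), and in 1, Atg3, below (3.92%). Atg16l2 adds no support to the count of 6 either, since it was tested only through Y-high arrays. No wild-type array was Y-high, so in wild type the difference between Y-high and other arrays was not measured.

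The Rassf1a effect could be read in separate sets of arrays, once against wild type and once between the genotypes with 1 Sav1 copy, which share none. The combined genotype minus Sav1+/- and Rassf1a-/- minus wild type had the same sign for 21 of the 35 genes (60%), as for 56.2% of all genes. Across the 35 genes the differences correlated at r = 0.33, beside 0.31 across all genes, where the points share the arrays and their processing. For Sav1, the combined genotype minus Rassf1a-/- and Sav1+/- minus wild type had the same sign for 23 of 35 genes (65.7%), as for 58.2% of all genes.

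**Figure D4:**
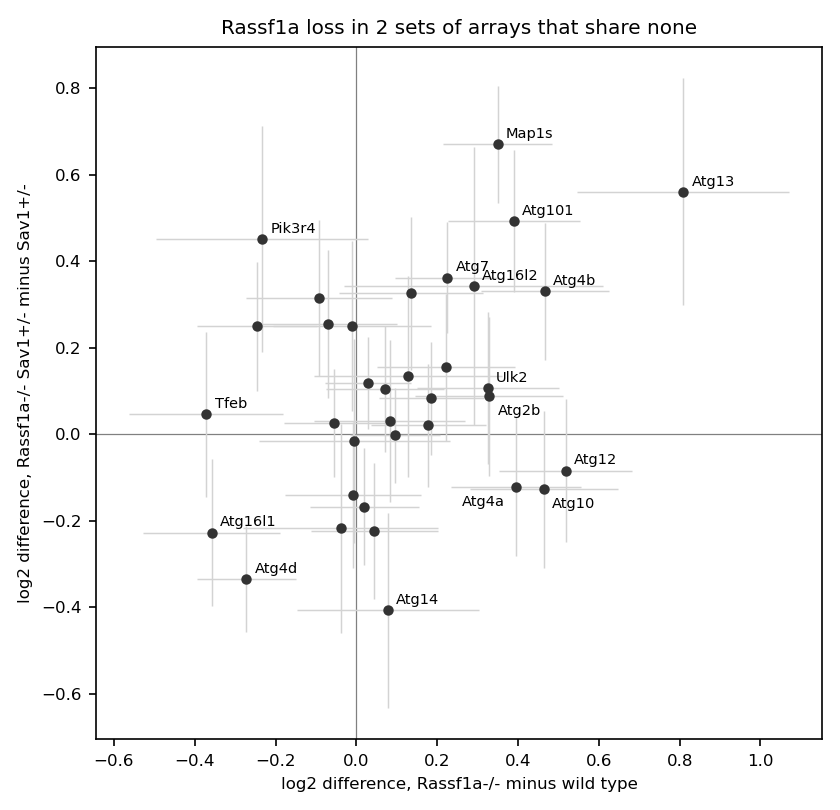
Log2 difference of each of the 35 genes in Rassf1a-/- minus wild type (horizontal axis) against the combined genotype minus Sav1+/- (vertical axis), with bars for 1 SE. The 2 axes share no array; 16 of the 35 genes are positive on both and 5 negative on both, and genes with larger differences carry their names.

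Genes of neighbouring steps were taken from 5 further lists, in which few genes were called. Among 15 genes of vesicle fusion 1 was called, Vamp8, lower in the combined genotype against wild type, and among 43 genes of the lysosome 1, Atp6v0b, lower in that comparison (0.821% of all genes called) and in the averaged Rassf1a effect (2.23%). None of 8 further core genes, 21 receptors of selective autophagy and 29 genes of mTORC1 and AMPK control was called in a comparison of genotypes. In the combined genotype against wild type 1, 5 and 4 of these 3 lists had an unadjusted p under 0.05, against 13.6% of all genes.

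VAMP8 is a SNARE protein of autophagosome fusion with the lysosome. Vamp8 had log2 signals of 11.58, 11.35, 11.65 and 11.46 in the combined genotype, 11.81, 11.84, 11.69 and 12.00 in Rassf1a-/-, 11.89, 11.88, 11.83 and 11.80 in Sav1+/- and 12.04, 11.95, 12.06 and 12.01 in wild type. All 4 arrays of the combined genotype lay below the other 12, and how many of all genes did so was not counted. Vamp8 and Atp6v0b are shown because they were called, so the position of their arrays adds no separate support. It fell by 0.50 against wild type (SE 0.11, 1.42-fold, adjusted p = 0.0370), a call that passed in 3 of 16 fits that left out 1 array (adjusted p = 0.0268 to 0.165). It did not pass without the 5 Y-high arrays (-0.46, adjusted p = 0.749). In the averaged Rassf1a effect the other fusion genes with the smallest p were Vps39 at +0.30, Plekhm1 at +0.33 and Snap29 at -0.27 (adjusted p = 0.150, 0.159 and 0.204).

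ATP6V0B is a membrane subunit of the proton pump that acidifies the lysosome. Atp6v0b had log2 signals of 11.05, 10.76, 10.94 and 10.89 in the combined genotype, 11.28, 11.39, 11.21 and 11.29 in Rassf1a-/-, 11.34, 11.46, 11.33 and 11.33 in Sav1+/- and 11.50, 11.61, 11.56 and 11.52 in wild type. The combined genotype lay below all other arrays, and both single genotypes below wild type. Atp6v0b fell by 0.64 in the combined genotype against wild type (SE 0.10, adjusted p = 0.00630) and by 0.36 in the averaged Rassf1a effect (SE 0.07, adjusted p = 0.0154). Both calls passed in all 16 fits that left out 1 array, and neither passed without the 5 Y-high arrays (-0.63 and -0.39, adjusted p = 0.263 and 0.149).

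The lysosome list had lower medians in the single genotypes than in the combined one. Its median difference from wild type was -0.02 in the combined genotype, with 23 of 43 genes negative, -0.21 in Rassf1a-/- livers, with 35 negative, and -0.19 in Sav1+/- livers, with 34 negative, beside medians of +0.05, -0.01 and -0.02 over all genes. The interaction had a median of +0.38 in the list and +0.09 over all genes, with 15 of the 43 at an unadjusted p under 0.05 (9.4% of all genes) and 0 called (0%). These differences and the interaction use the same wild-type arrays, and the interaction subtracts both single genotypes. The medians are therefore not separate observations. Beside Atp6v0b, Scarb2 was -0.37, Lipa +0.29 and Ctsl +0.20 in the averaged Rassf1a effect (adjusted p = 0.205, 0.227 and 0.268).

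Of the receptors of selective autophagy, Bnip3 and Sqstm1 had the smallest p in the averaged Rassf1a effect. Bnip3, a mitophagy receptor, had log2 signals of 11.66, 11.56, 12.05 and 12.05 in the combined genotype and 12.48, 12.28, 12.44 and 12.80 in wild type, a difference of -0.67 (SE 0.16, adjusted p = 0.0537). Sqstm1, which encodes the cargo receptor p62, had 12.67, 12.77, 12.55 and 12.61 in the combined genotype, above the 12.53, 12.24, 12.34 and 12.32 of wild type, a difference of +0.29 (SE 0.12, adjusted p = 0.279), and its averaged Rassf1a effect was +0.27 (adjusted p = 0.0956). In the same averaged effect Wdfy3 was +0.26 and Fundc1 +0.24 (adjusted p = 0.290 and 0.295). Of mTORC1 and AMPK control, Tbc1d7, a subunit of the TSC complex, was +0.60 (adjusted p = 0.0576), Sesn3 +0.49, Tsc1 +0.28 and Sesn1 +0.30 (adjusted p = 0.102, 0.159 and 0.197). Among further core genes Wdr45b was -0.26, Rubcn +0.24, Zfyve1 +0.18 and Vmp1 +0.12 in that effect, with adjusted p from 0.301 to 0.650.

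**Figure D5:**
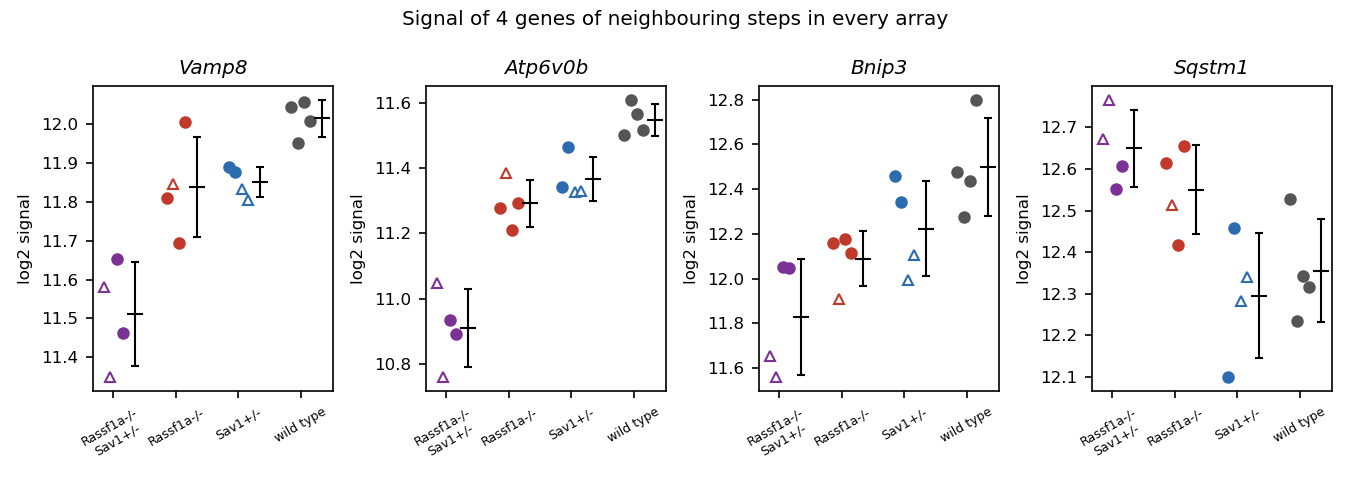
Log2 signal of Vamp8, Atp6v0b, Bnip3 and Sqstm1 in every array by genotype, with triangles for Y-high and circles for other arrays and bars for the mean ± SD of 4 arrays. For Vamp8 and Atp6v0b the 4 arrays of the combined genotype lie below the other 12.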

How the data were processed

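RNA of 16 mouse liver samples (4 arrays for each of 4 genotypes) was read on Affymetrix arrays. The deposited values are log2 signals per probe set. The submitters' processing notes name Affymetrix Expression Console; its version and its way of summarising and normalizing probes are stated nowhere in these notes or labels. Of 35556 probe sets, 21789 named 1 gene in the platform annotation (19938 genes), 1621 named several and were left out, and 21698 matched RefSeq by gene ID.

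A gene was kept if a probe set reached the array's 40th percentile, taken over probe sets of 1 gene, in at least 4 arrays, which left 13152 genes. Means of the 4 genotypes were fitted in R 4.3.3 by lmFit and eBayes of limma 3.58.1 (tables were read with the package data.table, version 1.17.8) with 12 residual degrees of freedom, two-sided, and p-values were adjusted by Benjamini-Hochberg over all genes of a comparison. Averaged effects are the mean of the 2 differences that alter 1 gene at either state of the other. Array medians lay between 7.20 and 7.51. With 4 arrays a genotype, the number of arrays limits the precision. The fitting code was tested on simulated data. Figures were drawn with Python 3.11.15, pandas 2.3.3 and matplotlib 3.10.9.

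The 35 genes and the further lists were chosen with earlier results of these data known, so no list is independent support. Every one of the 35 genes is described, called genes in every array, and of each further list up to 4 genes with the smallest p in the averaged Rassf1a effect are named. The split by Y-linked signal was made after seeing the data. A further 10 settings and 16 fits that left out 1 array were run. No gene's level was set against another gene's.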

Additional observations from a re-analysis of the deposited data

Results flagged for a closer look

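Of 140 sets of 4 arrays (35 genes in 4 genotypes), 8 held an array whose gap to the nearest other array was too large a part of the set's range by Dixon's critical value. That is 5.71% of the sets, and chance gives about 1 in 20. Atg4d was 9.40 in replicate 4 of the combined genotype, against 9.02 to 9.06 in the other 3, still below every wild-type array. Atg12 was 9.10 in replicate 2 of Rassf1a-/-, against 8.75 to 8.79, and Atg16l2 was 7.87 in the same array, against 6.88 to 7.04. Rb1cc1 was 8.84 in replicate 3 of Rassf1a-/-, against 9.20 to 9.27. Among Sav1+/- arrays, Atg2b was 9.03 in replicate 1, against 9.80 to 9.89, and Map1lc3a was 9.20 in replicate 2, against 9.96 to 10.12. In wild type, Atg10 was 8.89 in replicate 4, against 8.55 to 8.61, and Atg16l1 was 9.11 in replicate 1, against 8.77 to 8.81.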

How the results depend on the processing

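No direction of a called gene turned in the 10 other settings or the 16 fits that left out 1 array. Among the 35 genes' differences of over 0.25 in size, signs turned 5 times in Sav1+/- against wild type and 1 time in the averaged Sav1 effect. No paired analysis was possible because samples of different genotypes share no number in the labels.

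The number of the 35 genes called moved as follows, the cause not being tested. In the combined genotype against wild type (1 gene) it was 2 with only the compared genotypes fitted, 5 with array weights and 0 without the Y-high arrays, and 1 to 3 on leaving out 1 array (3 without replicate 1 and 2 without replicate 2 of Sav1+/-). In Rassf1a-/- against wild type (0) it was 1 with only the compared genotypes and 5 with array weights, and 0 on leaving out any array. In the combined genotype against Sav1+/- (1, Map1s) it was 0 with no filter, the 60th percentile, only the compared genotypes, a trended and robust eBayes, array weights, or without the Y-high arrays, and 0 to 1 on leaving out 1 array (0 without replicate 4 of Rassf1a-/-, replicates 3 or 4 of Sav1+/-, or replicates 2, 3 or 4 of the combined genotype). In the combined genotype against Rassf1a-/- (0) it was 1 with the 60th percentile and 5 with array weights, and 0 to 2 on leaving out 1 array (2 without replicate 4 of the combined genotype and 1 without replicate 2 of Sav1+/-). In the averaged Rassf1a effect (1, Map1s) it was 4 with the 60th percentile, 2 with quantile normalization, 2 with a trended and robust eBayes, 6 with array weights and 2 with a covariate of mean Y-linked signal, and 0 to 3 on leaving out 1 array (0 without replicate 4 of Rassf1a-/- or replicates 2 or 3 of the combined genotype, and 3 without replicate 2 or 4 of Sav1+/-). In the averaged Sav1 effect (1, Atg4d) it was 0 with no filter, that covariate, without the Y-high arrays or with the percentile over all probe sets (chosen after seeing the data), 4 with array weights, and 0 to 2 on leaving out 1 array. Between Y-high and other arrays (3) it was 4 with quantile normalization (Atg3 added), 2 with the 60th percentile (Atg16l2 no longer tested), and 1 to 3 on leaving out 1 array (1 without replicate 4 of Sav1+/-).

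Map1s dropped out of the test, by the construction of the filter, with the 60th percentile, without the Y-high arrays, and without replicate 4 of Rassf1a-/- or replicates 2, 3 or 4 of the combined genotype. Without the Y-high arrays 11 arrays remained, and the single gene called in the averaged Rassf1a effect was Atg13 in place of Map1s. Over all genes, calls ran from 6 to 1231 in the combined genotype against wild type (108), 59 to 898 in Rassf1a-/- against wild type (92), 0 to 7 in Sav1+/- against wild type (0), 0 to 185 in the combined genotype against Sav1+/- (110), 0 to 1979 against Rassf1a-/- (1), 80 to 800 in the averaged Rassf1a effect (293) and 0 to 1517 in the averaged Sav1 effect (3) under the other settings. On leaving out 1 array these counts ran, in the same order, from 39 (without wild-type replicate 4) to 213 (Sav1+/- replicate 1), 54 (wild-type replicate 3 or Rassf1a-/- replicate 1) to 128, 0 to 6 (Sav1+/- replicate 2), 27 (combined replicate 2) to 478 (Sav1+/- replicate 2), 0 to 210 (combined replicate 4), 192 (wild-type replicate 3 or Rassf1a-/- replicate 1) to 581 (Sav1+/- replicate 2) and 1 to 89 (combined replicate 4), so the shares of all genes called move with single arrays. Signals near the filter limit Map1s and Atg16l2.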
